A study of Saccharomyces cerevisiae with 6 samples.

Results

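The coenzyme Q synthesis genes are described here as the probe sets whose annotated gene symbol is COQ1, COQ2, COQ3, COQ4, COQ5, COQ6, COQ8, COQ9, COQ10 or COQ11. Each of these 10 genes had 1 probe set, out of 5716 probe sets for 5449 named genes in all. Messenger RNA of budding yeast, Saccharomyces cerevisiae, was measured on one-colour Affymetrix arrays, on which a set of short oligonucleotide probes reads each transcript as a signal in arbitrary units. The mutant strain, labelled H4R45H, carries histone H4 with arginine 45 changed to histidine, and it was set against WY139, labelled as having wild-type histone H4 (WT below). There were 3 arrays per strain, and both strains were grown in the rich glucose medium YPD to mid-log phase. Whether an unmutated H4 copy remained in the mutant, the rest of either genotype, the number of clones and whether the replicates were separate cultures are not given in the sources used here. All p-values below rest on array-to-array spread alone, and that spread may be technical.

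Coenzyme Q, or ubiquinone, is the lipid that carries electrons from dehydrogenases of the mitochondrial inner membrane to the cytochrome bc1 complex. Budding yeast makes it in the mitochondrion from an aromatic ring and a polyisoprenoid tail, and most of the Coq proteins assemble into a membrane-bound complex that modifies the ring. Yeast growing on glucose mostly ferments, and many genes of respiration are kept low in that state. The study asked how a subtle change at 1 position in the core of H4 alters the mRNA profile.

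Of the 10 coenzyme Q synthesis genes, 9 rose in H4R45H and 0 fell, and COQ10 did not pass the test. The median log2 difference of the 10 genes was 0.34, and over all probe sets it was 0.06. Calls are adjusted p-values under 0.05 from limma, with Benjamini-Hochberg adjustment over the whole array, and differences are log2 signal in H4R45H minus WT. By the same rule 37.7% of all probe sets were called higher and 28.7% lower, which is the background for the count of 9. The largest rises were 1.90-fold, for COQ11 and COQ4, and the smallest was 1.13-fold, for COQ5. After quantile normalization, which gives every array the same distribution of signals, 8 genes were called higher and 1, COQ10, lower, with a median of 0.26, where 27.2% of all probe sets were called higher and 36.3% lower, with a median of -0.06. Cyclic loess normalization, which removes trends with brightness, also gave 8 higher and 1 lower, against 31.0% and 30.0% of all probe sets.

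**Figure D1:**
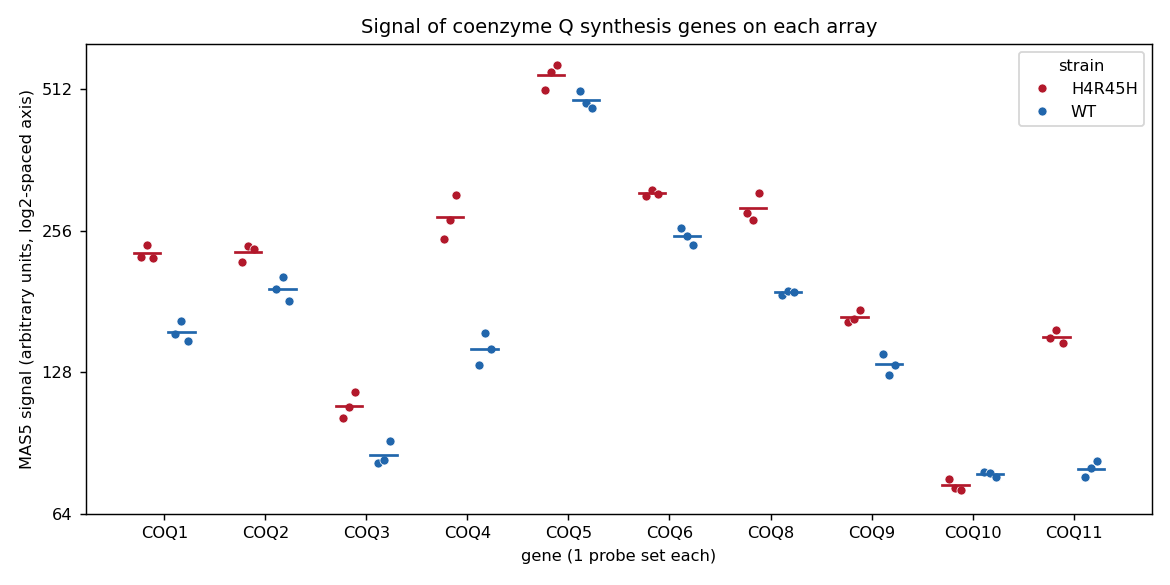
Signal of the 10 coenzyme Q synthesis genes on each array, in arbitrary units on a log2-spaced axis. Points are arrays, short lines are means of 3 arrays, and H4R45H stands left of WT for each gene. In 9 genes all H4R45H points lie above all WT points, and in COQ10 they lie below.

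The first steps make the tail and join it to the ring. COQ1 (YBR003W) encodes the synthase of the hexaprenyl diphosphate tail. It had signals of 224.7, 238.6 and 223.7 on the H4R45H arrays, against 154.3, 164.1 and 149.0 on the WT arrays. The lowest mutant value stood well above the highest wild-type value, and COQ1 rose 1.47-fold (log2 difference 0.56, SE 0.065, adjusted p = 3.3e-05). COQ2 (YNR041C) encodes the transferase that attaches the tail to 4-hydroxybenzoate. Its signals were 219.0, 237.1 and 234.4 in H4R45H, against 192.5, 203.8 and 181.7 in WT. The strains did not overlap but came close, and COQ2 rose by less than COQ1 (log2 difference 0.26, SE 0.067, adjusted p = 0.0061). After median centring, which subtracts each array's median, the COQ2 call was lost (0.15, adjusted p = 0.075).

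The ring is then hydroxylated and methylated. COQ6 (YGR255C) encodes a flavin monooxygenase that hydroxylates the ring. Its signals were 303.2, 311.5 and 306.2 in H4R45H, against 259.8, 249.2 and 238.9 in WT. The mutant values lay close together and above every wild-type value, and COQ6 rose 1.23-fold (log2 difference 0.30, SE 0.058, adjusted p = 0.00098). COQ3 (YOL096C) encodes the O-methyltransferase of the pathway, and it had 102.1, 107.9 and 116.0 in H4R45H, against 81.9, 83.3 and 91.4 in WT. COQ3 was called higher as deposited (log2 difference 0.35, SE 0.078, adjusted p = 0.0028), and this call was lost under quantile scaling (0.12, adjusted p = 0.19) and under cyclic loess scaling (0.19, adjusted p = 0.055). Its quantile-normalized signals were 93.5, 100.9 and 109.4 in H4R45H, against 90.9, 90.7 and 96.9 in WT, so there the strains overlapped.

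COQ5 (YML110C), for the C-methyltransferase, had the brightest probe set of the 10. Its signals were 510.4, 556.1 and 575.0 in H4R45H, against 507.6, 478.4 and 467.4 in WT. The lowest mutant array lay just above the highest wild-type array, and the call was narrow (log2 difference 0.17, SE 0.061, adjusted p = 0.026). The call was lost without H4R45H replicate 2 (0.16, adjusted p = 0.085), without H4R45H replicate 3 (0.14, adjusted p = 0.075), without WT replicate 2 (0.17, adjusted p = 0.078) and without WT replicate 3 (0.15, adjusted p = 0.085). It was also lost without the variance trend (adjusted p = 0.052), with the replicate number as a block (adjusted p = 0.054) and after median centring (0.07, adjusted p = 0.37). After quantile normalization it stood at 0.23 (adjusted p = 0.0064).

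A further ring hydroxylase, Coq7, is encoded by YOR125C, which the annotation lists as CAT5 with COQ7 as a synonym, so its symbol is not among the 10. COQ7 had a dim probe set, with 73.1, 78.1 and 84.8 in H4R45H, against 61.8, 62.8 and 62.0 in WT. As deposited COQ7 was called higher (log2 difference 0.34, SE 0.080, adjusted p = 0.0035), but its difference under quantile scaling was 0.02 (adjusted p = 0.86), and cyclic loess scaling gave 0.07 (adjusted p = 0.46).

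Genes for proteins that hold, help or modulate the Coq complex had both the largest and the smallest differences. COQ4 (YDR204W) encodes a core member of the complex that the assembly of the other subunits needs. Its signals were 245.7, 269.1 and 303.9 in H4R45H, against 132.5, 154.8 and 143.7 in WT. Every mutant array was far above the wild-type arrays, although the mutant arrays spread more here than for the other 9 genes, with an SD of 10.7% of the mean. COQ4 rose 1.90-fold (log2 difference 0.92, SE 0.089, adjusted p = 8.6e-06). COQ11 (YLR290C) encodes a protein of the complex related to short-chain dehydrogenases, and in yeast its loss is known to ease the respiratory defect of cells without Coq10. It had 151.2, 157.6 and 147.3 in H4R45H, against 76.7, 80.2 and 82.7 in WT. COQ11 rose 1.90-fold (log2 difference 0.93, SE 0.068, adjusted p = 1.2e-06), with the lowest adjusted p of the 10.

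COQ8 (YGL119W) encodes an atypical kinase-like ATPase needed for a stable complex. Its signals were 279.2, 270.2 and 307.2 in H4R45H, against 186.7, 190.8 and 189.8 in WT. The wild-type values were nearly equal and all mutant values lay above them, and COQ8 rose 1.51-fold (log2 difference 0.59, SE 0.065, adjusted p = 2.1e-05). COQ9 (YLR201C) encodes a lipid-binding protein that works with Coq7. It had 163.3, 166.4 and 173.7 in H4R45H, against 140.0, 126.3 and 132.5 in WT, without overlap. COQ9 rose 1.26-fold (log2 difference 0.34, SE 0.067, adjusted p = 0.0012), and its difference was 0.22 after quantile normalization (adjusted p = 0.018).

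COQ10 (YOL008W) encodes a coenzyme Q binding protein of the START family that respiration needs but that is not an enzyme of the pathway. Its signals were 75.9, 72.7 and 72.0 in H4R45H, against 78.7, 78.3 and 76.5 in WT. The mutant values were all lower, by a few units, and the difference did not pass the test (log2 difference -0.08, SE 0.070, adjusted p = 0.32, 95% interval -0.24 to 0.07). Under the normalizations COQ10 was called lower, with -0.39 from quantile (adjusted p = 0.00076), -0.32 from cyclic loess (adjusted p = 0.0024) and -0.19 from median scaling (adjusted p = 0.035). The quantile-normalized signals were 66.8, 64.7 and 63.2 in H4R45H, against 87.9, 85.8 and 82.1 in WT. COQ10 had the lowest difference of the 10 genes under all of these scalings, while COQ11 had the highest as deposited and after median centring and the next to highest, behind COQ4, after quantile and cyclic loess normalization.

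**Figure D2:**
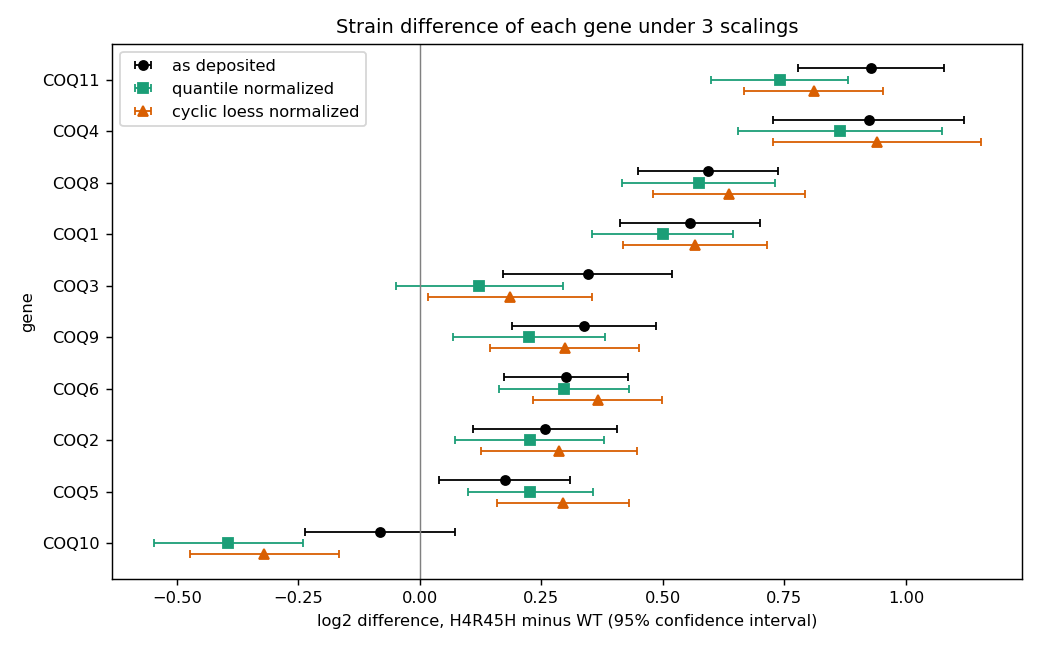
Log2 difference of each coenzyme Q synthesis gene, H4R45H minus WT, with its 95% confidence interval from the limma fit, as deposited and after quantile and cyclic loess normalization. COQ11 and COQ4 lie between 0.74 and 0.94 under the 3 scalings, the interval of COQ3 reaches below 0 after quantile normalization, and COQ10 lies below 0 with an interval that reaches above 0 as deposited.

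The measured log2 differences varied between the genes, and no joint test of equal differences was run. Of the 45 pairs of the 10 genes, 26 had differences whose 95% intervals did not overlap, and after quantile normalization 25 pairs had intervals that did not overlap. In order of size the genes were COQ11, COQ4, COQ8, COQ1, COQ3, COQ9, COQ6, COQ2, COQ5 and COQ10, and each gene's interval overlapped that of the next. The intervals of COQ11 (0.78 to 1.08) and COQ4 (0.73 to 1.12) lay above those of COQ1, COQ3, COQ9, COQ6, COQ2, COQ5 and COQ10. With a minimum of 1.5-fold, 3 of the 10 genes were called higher, namely COQ11, COQ4 and COQ8, against 18.6% of all probe sets. The SD over 3 arrays was 1.37% to 10.7% of the mean in H4R45H and 1.13% to 7.76% in WT. H4R45H replicate 1 had the lowest signal of its strain for 6 of the 10 genes, and H4R45H replicate 3 the highest for 5.

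None of the 10 genes had overlapping strains on the deposited scale, with H4R45H higher in 9 and lower in 1. Over all probe sets the strains did not overlap in 71.7%, with H4R45H higher in 40.4% and lower in 31.3%. Brightness moved with the strain difference across the arrays. The median difference was 0.71 in the dimmest of 10 equal classes of probe sets by signal and -0.18 in the brightest. COQ10 lay in class 3 from the bottom, with a median difference of 0.20, and the other 9 genes in classes 4 to 9, with medians of 0.13 to -0.10. In classes 4 to 9 25.2% to 41.6% of probe sets were called higher. Quantile normalization brought the medians of all classes to between -0.09 and -0.02.

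**Figure D3:**
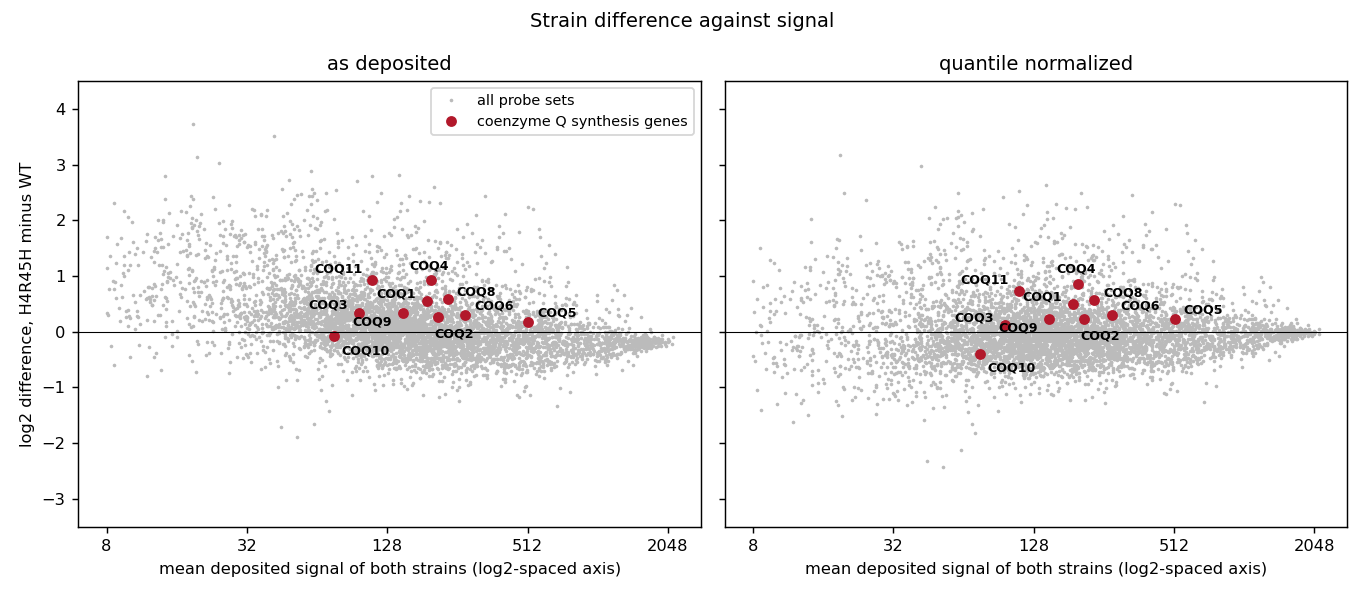
Log2 difference, H4R45H minus WT, of every probe set (grey) and of the 10 coenzyme Q synthesis genes (red) against the mean deposited signal on a log2-spaced axis, as deposited on the left and quantile normalized on the right. The 124 probe sets with a mean signal under 8 are not drawn. COQ10 is the only red point below 0 in either panel.

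The genes that supply the ring included rises and falls. The list holds the shikimate pathway, tyrosine synthesis and breakdown, and synthesis of p-aminobenzoate, which yeast can also use as a ring precursor. Of its 11 genes 4 rose and 4 fell, and the median was -0.04, and after quantile normalization 5 were higher and 3 lower, with a median of 0.09. Over all probe sets the shares were 37.7% higher and 28.7% lower as deposited, and 27.2% and 36.3% after quantile normalization. Most of these genes lie in the brighter classes 7 to 10 by signal. In those classes 9.1% to 29.4% of probe sets were higher and 36.9% to 66.6% lower as deposited. HFD1, an aldehyde dehydrogenase that makes 4-hydroxybenzoate in yeast, had 263.9, 295.0 and 334.5 in H4R45H, against 121.5, 161.0 and 147.9 in WT. HFD1 rose 2.08-fold (log2 difference 1.06, SE 0.11, adjusted p = 1.7e-05). ABZ1 and ABZ2, the genes of p-aminobenzoate synthesis, rose by 0.58 (adjusted p = 0.00013) and 0.45 (adjusted p = 0.00028) on the log2 scale in the limma fit. ARO9, an aromatic aminotransferase, fell by 0.59 on that scale, with 186.8, 227.8 and 204.0 in H4R45H, against 287.3, 328.2 and 312.5 in WT (SE 0.082, adjusted p = 0.00012).

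Of 10 genes that supply the tail, those of the mevalonate pathway and the prenyl diphosphate synthases ERG20 and BTS1, 1 rose and 3 fell, with a median of -0.03. Among all probe sets 37.7% were higher and 28.7% lower as deposited. Most of these genes lie in the brightest classes 9 and 10 by signal. In those classes 9.1% to 25.2% of probe sets were higher and 45.5% to 66.6% lower as deposited. After quantile normalization 3 of the 10 genes were higher and 1 lower, with a median of 0.01, where the shares of all probe sets were 27.2% and 36.3%. MVD1, the mevalonate pyrophosphate decarboxylase, rose 1.31-fold (log2 difference 0.39, limma adjusted p = 0.00042) and had 0.52 after quantile normalization. ERG20, which makes the farnesyl diphosphate that Coq1 extends, was called lower as deposited (-0.16, limma adjusted p = 0.0057) but had -0.02 under quantile scaling (adjusted p = 0.61) and 0.01 under cyclic loess scaling. HMG1, one of the HMG-CoA reductases, was called lower as deposited (-0.19, limma adjusted p = 0.028). That call was lost under quantile (-0.12, adjusted p = 0.11) and cyclic loess scaling (-0.06, adjusted p = 0.45), in the fit that models no trend of the variance (adjusted p = 0.060) and without H4R45H replicate 1, WT replicate 1 or WT replicate 2 (adjusted p = 0.080 to 0.10). BTS1, the geranylgeranyl diphosphate synthase, was dim, with means of 35.4 ± 0.1 in H4R45H and 43.0 ± 5.14 in WT (SD, n = 3 each). Its difference of -0.27 (limma adjusted p = 0.039) lost its call without any single H4R45H array or WT replicate 1 or 3 (adjusted p = 0.073 to 0.14) and became -0.86 after quantile normalization (adjusted p = 8.4e-05).

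Besides COQ7, 4 genes that support Coq enzymes were measured, while CQD1, also on that list, was not analysed here. PTC7, the mitochondrial phosphatase that acts on Coq7, fell, with 178.2, 168.1 and 157.4 in H4R45H, against 208.1, 199.0 and 214.8 in WT (log2 difference -0.31, SE 0.068, limma adjusted p = 0.0025). YAH1, the ferredoxin that passes electrons to Coq6, fell as well (-0.25, SE 0.063, limma adjusted p = 0.0046). PTC7 and YAH1 were also called lower after quantile normalization, at -0.36 and -0.26. ARH1, the reductase of that ferredoxin, had 0.13 (adjusted p = 0.14) and MCP2, a protein of coenzyme Q distribution, 0.12 (adjusted p = 0.28), and both were negative after quantile normalization (-0.05 and -0.14). Of these 5 genes together, COQ7 included, 1 was higher and 2 were lower as deposited, and 0 were higher and 2 lower after quantile normalization. The shares over all probe sets were 37.7% higher and 28.7% lower as deposited, and 27.2% and 36.3% after quantile normalization.

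Most genes for dehydrogenases that reduce ubiquinone rose. Of 9 genes 7 rose and 1 fell as deposited, with a median of 0.84, where 37.7% of all probe sets were higher and 28.7% lower. After quantile normalization 7 were higher and 0 lower, with a median of 0.71, where the shares were 27.2% and 36.3%. GUT2, the mitochondrial glycerol-3-phosphate dehydrogenase, averaged 286 ± 42.2 in H4R45H and 101 ± 8.38 in WT (SD, n = 3 each), a 2.82-fold rise (SE of the log2 difference 0.10, limma adjusted p = 9.3e-07). SDH1, the flavoprotein of succinate dehydrogenase, rose 2.03-fold, and NDI1, the internal NADH dehydrogenase, 1.84-fold. NDE2, an external NADH dehydrogenase, had the largest fold of the list, 4.84, with dim signals of 59.0 ± 6.34 in H4R45H and 12.3 ± 2.19 in WT (SD, n = 3 each), and its log2 difference of 2.27 became 1.59 after quantile normalization and 0.81 with a pseudocount of 50. The single call in the other direction was NDE1, the other external NADH dehydrogenase, at -0.13 (limma adjusted p = 0.048), which was chosen after its value was seen. The NDE1 call was lost under quantile scaling (-0.0083, adjusted p = 0.87), its sign turned under cyclic loess scaling (0.022, adjusted p = 0.69), and the count of lower genes was 0 without any single array other than H4R45H replicate 3.

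The bc1 complex takes electrons from reduced coenzyme Q. Of its 9 nuclear genes 6 rose and 0 fell as deposited, with a median of 0.32, where 37.7% of all probe sets were higher and 28.7% lower. After quantile normalization 8 were higher and 0 lower, with a median of 0.36, where the shares were 27.2% and 36.3%. All 9 had higher signals on every H4R45H array than on any WT array, as did 40.4% of all probe sets. CYT1, for cytochrome c1, had a log2 difference of 0.41 (limma adjusted p = 0.00040), QCR10 0.39 (adjusted p = 0.00067), COR1 0.35 (adjusted p = 0.00016) and QCR9 0.32 (adjusted p = 0.00074). These genes were named for the size of their differences. Of the others, QCR2 had 0.32 and QCR8 0.15, both called higher. RIP1 (0.16), QCR6 (0.13) and QCR7 (0.10) were not called. The bc1 median was near that of the coenzyme Q synthesis genes, and all bc1 differences lay below those of COQ11 and COQ4.

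**Figure D4:**
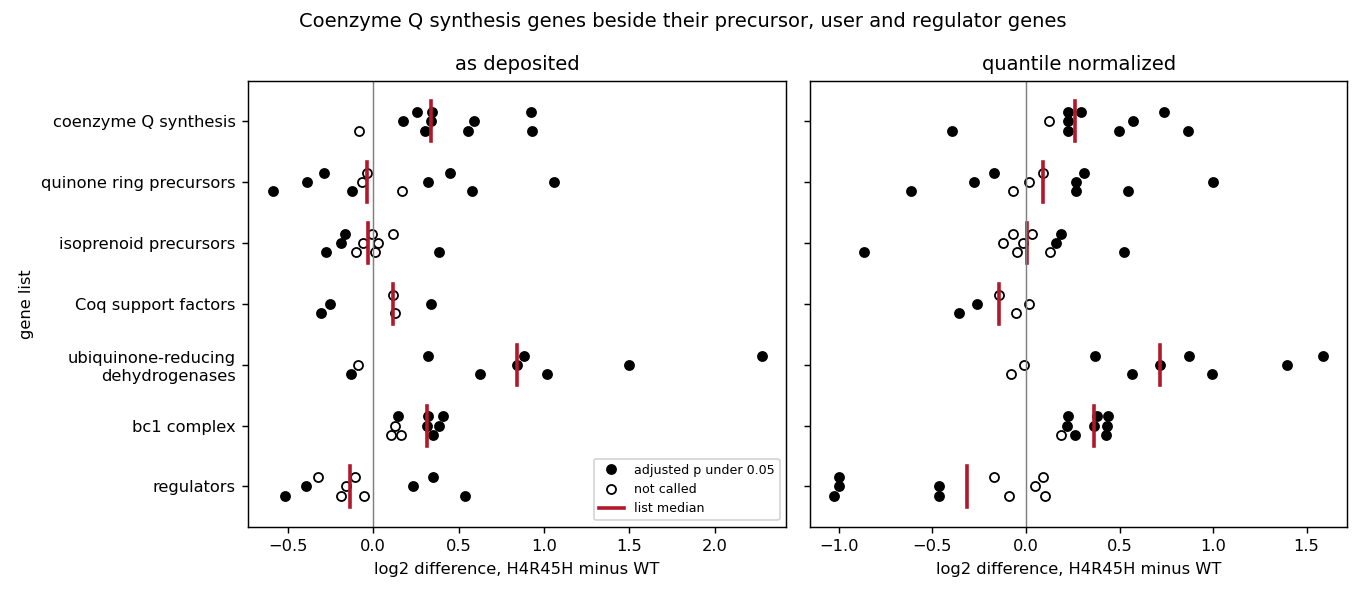
Log2 difference, H4R45H minus WT, of each gene of the coenzyme Q synthesis set and of 6 related lists, as deposited on the left and quantile normalized on the right. Filled points passed an adjusted p under 0.05, open points did not, and red bars are list medians. The medians of coenzyme Q synthesis (0.34 and 0.26), the dehydrogenases (0.84 and 0.71) and the bc1 complex (0.32 and 0.36) are positive in both panels.

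Regulators of respiratory genes were mixed and mostly dim. Of 10 genes 3 rose and 2 fell as deposited, with a median of -0.13. Over all probe sets the deposited shares were 37.7% higher and 28.7% lower. Most of these genes lie in the dim classes 1 to 3 by signal. In those classes 48.2% to 63.5% of probe sets were higher and 4.0% to 11.7% lower as deposited. After quantile normalization 0 of the 10 genes were higher and 5 lower, with a median of -0.32, where the shares of all probe sets were 27.2% and 36.3%. HAP3, a DNA-binding subunit of the Hap2/3/4/5 activator of respiratory genes, was lower (-0.51, limma adjusted p = 0.00048) and stayed called lower after quantile normalization (adjusted p = 8.5e-06). HAP4, its activating subunit, had 136.7, 154.6 and 185.7 in H4R45H, against 175.2, 220.3 and 230.5 in WT. The strains overlapped, and the call of HAP4 as lower (-0.39, SE 0.12, adjusted p = 0.017) was lost without H4R45H replicate 1 or 2 or WT replicate 2 or 3 (limma adjusted p = 0.053 to 0.073). HAP5 (0.54) and RTG3 (0.35), a retrograde response factor, were called higher as deposited (limma adjusted p = 0.00090 and 0.0029), and quantile scaling ended both calls, with 0.05 for HAP5 (adjusted p = 0.71) and 0.09 for RTG3 (adjusted p = 0.34). The count of lower genes was 1 without H4R45H replicate 1 or 2 or WT replicate 2 or 3 and 4 without H4R45H replicate 3.

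The coenzyme Q synthesis genes are scattered over the chromosomes. Of the 20 protein-coding genes next to them in RefSeq order, 18 were measured, of which 7 were called higher, 5 lower and 6 neither, where 37.7% of all probe sets were higher and 28.7% lower. After quantile normalization 8 were higher, 8 lower and 2 neither, where the shares were 27.2% and 36.3%. Whether the neighbours differ from other genes in these counts was not tested. COQ11 lies between GUF1, a mitochondrial translation factor, which rose (log2 difference 0.60), and GCD7, a subunit of the translation factor eIF2B, which fell (-0.59). COQ1 lies between RER2, for a cis-prenyltransferase, which fell (-0.60), and GPI18, which rose (0.56). COQ8 lies beside the helicase gene PRP43, which fell (-0.47), and COQ3 beside the tRNA synthetase gene WRS1, which fell (-0.61). COQ6 lies beside ENO1, which was not called (-0.03), and GND2, a phosphogluconate dehydrogenase gene, which rose by 2.19. All of these neighbours kept their direction after quantile normalization except ENO1, which had 0.15 there (adjusted p = 0.0026). They were chosen for mention after their values were seen.

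Facts of the arrays bear on all of these values. The mean signal per array was 277 to 280 in H4R45H and 284 to 287 in WT, and the median 159 to 163 in H4R45H and 148 to 151 in WT. The probe set for histone H4 is named HHF1, may bind several transcripts and did not pass the test as deposited (log2 difference -0.03, adjusted p = 0.64), but was called higher after cyclic loess normalization (0.14, adjusted p = 0.047). HHF2 was not analysed here. A point mutation leaves its target in place, so it does not check the labels. Both strains had the transcripts of mating type a, with the summed signal of 5 a-specific genes at 2483 to 2696 in H4R45H and 2522 to 2594 in WT. Of these 5 genes, 2 (MFA1 and BAR1) were called higher and 2 (MFA2 and STE6) lower, both as deposited and after quantile normalization. The summed signal of 4 alpha-specific genes was 309 to 366 in H4R45H and 131 to 141 in WT, with all 4 called higher as deposited and 2 after quantile normalization and 0 of them at a signal of 0. Whether this has a part in the differences of the coenzyme Q synthesis genes was not tested.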

How the data were processed

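Total RNA of 3 H4R45H and 3 WT arrays was measured, from cells harvested at an optical density of 0.5 to 0.7, per the labels. The values are linear intensities, which the authors deposited with 1 value per probe set. The submitters' processing notes name MAS5, and its version, scaling target and detection calls are not given in the sources used here. Depth has no meaning for arrays, and their number limits the precision. No column of another sample was present.

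Names of probe sets come from the platform annotation, with symbols updated through the Entrez identifier to RefSeq names (5498 of 5716 named). The 10 members, the 6 related lists and the tests were chosen with earlier results of these data known. Signals were taken as log2 without further scaling, with 7 values at 0 set to 0.1. The strain difference was fitted with limma 3.58.1 (lmFit, eBayes with trend) in R 4.3.3, two-sided, adjusted over all probe sets. An exact permutation test of 3 against 3 arrays cannot go below p = 0.1 and was not used. A gene was read from its brightest probe set. Named were all members, up to 4 called genes of each related list by size, every gene of a list with 6 or fewer measured, and HHF1. Neighbours were added later. Alternatives were quantile, cyclic loess and median scaling, a pseudocount of 50, a fit without the variance trend, removal of the dimmest 25% of probe sets or of each array, a minimum of 1.5-fold, and the replicate number as a block. The fit was tested on simulated data with 50 probe sets for each size of effect. It called 18% of effects of 0.25 on the log2 scale with the right sign, 76% of those of 0.5 and 96% of those of 1. Coordinates are not given because the files name no genome build, and no sequences were used.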

Additional observations from a re-analysis of the deposited data

How the results depend on the processing

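COQ11, COQ4, COQ8, COQ1, COQ9 and COQ6 kept their direction and their call under all 13 refits, with COQ11 between 0.64 and 0.95 and COQ4 between 0.735 and 0.996. Leaving out the dimmest 25% of probe sets removed COQ10 and COQ7 from the test. The count of coenzyme Q synthesis genes called higher was 8 to 9 without single arrays, 7 after median centring and 3 at a minimum of 1.5-fold. The count lower was 0 without single arrays and 1 after quantile, cyclic loess and median scaling. The share of all probe sets called was counted only as deposited, after quantile and cyclic loess normalization, and for rises at 1.5-fold. Whether list counts under the other settings moved with the whole array was not tested. Deviations of same-numbered arrays correlated at -0.03 to 0.03, and those of differently numbered arrays at -0.12 to 0.12. No effect shared by equal replicate numbers was seen, but this cannot show that the arrays were not paired. With the replicate block 8 coenzyme Q synthesis genes were higher and 0 lower, and the dehydrogenases had 0 lower. At 1.5-fold the ring precursors had 1 higher and 1 lower, the support factors, tail precursors and regulators 0 and 0, and the bc1 complex 0 higher. The tail precursors had 4 higher and 1 lower after cyclic loess, 3 and 1 after quantile normalization, 5 lower after median centring and 1 to 2 lower without single arrays. The support factors had 0 higher after quantile and cyclic loess normalization and without the dimmest 25%. The dehydrogenases had 0 lower after quantile and cyclic loess normalization, without the variance trend, without the dimmest 25% and at 1.5-fold, 2 lower after median centring, and 0 to 1 without single arrays. The regulators had 0 higher and 5 lower after quantile normalization, 1 and 5 after cyclic loess, 4 lower after median centring, 1 lower without the dimmest 25%, and 1 to 4 lower without single arrays. A pseudocount of 50 shrank the differences of dim genes over 1.5 times without ending a call, to 0.23 for COQ3, 0.20 for COQ7, -0.12 for BTS1, -0.25 for HAP3, 0.27 for HAP5, 0.22 for RTG3 and 0.81 for NDE2, and that of COQ10, not called, to -0.049. Values changed sign for ERG20 (0.011) and NDE1 (0.022) after cyclic loess, ARH1 (-0.053 after quantile normalization), MCP2 (-0.14 under quantile and -0.082 under cyclic loess scaling) and HHF1 (0.12 under quantile and 0.14 under cyclic loess scaling, and -0.099 to 0.0093 without single arrays). The cause of these changes was not tested. No background signal or detection call was used, so how far the dim probe sets of COQ10, COQ7, NDE2 and BTS1 lie above background is not known here.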
